A study of Mus musculus with 3 samples.

Results

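The cytosolic ribosomal proteins are the protein components of the ribosomes that translate nuclear-encoded mRNA in the cytoplasm. They were taken here as every non-control array probe whose RefSeq mRNA accession mapped to a mouse symbol of the form Rps or Rpl plus a number, or to Rpsa, Rplp0, Rplp1 or Rplp2. Pseudogenes and the Rps6k kinases were left out. The rule found 84 genes with 148 probes, among 23458 named genes with 33759 probes. Of the 84 genes, 31 belong to the small subunit (57 probes) and 53 to the large subunit (91 probes). The symbols of 8 genes are those of a core gene with l, al or l1 added, and these are called paralogs below, while the other 76 are called core genes. A single probe read 37 of the genes, and the other 47 had between 2 and 5.

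The arrays came from ICR mice, with 1 pool of 30 blastocysts for each of 3 conditions and no replicate. Young blastocysts came from untreated embryos of females aged 3 to 6 weeks. Aging blastocysts came from untreated embryos of females aged 43 to 53 weeks. Suppressed aging blastocysts came from females of the same older ages, and their embryos were cultured with an anti-CXCL5 neutralizing antibody at 10 μg/ml and a selective CXCR2 antagonist at 10 nM, which together block the chemokine CXCL5 and its receptor. In all groups, females were super-ovulated, zygotes were cultured in KSOM medium, and blastocysts were collected after 96 h. The study describes zygotes from mating and from in vitro fertilization, and its text does not say which were used for the arrays. Each array thus averages over the embryos of a pool, and no difference below has an error between pools or a test.

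Ribosomal protein genes are transcribed in every cell and their products are needed in equal numbers, since each protein is present as a single copy in most ribosomes, apart from those of the stalk. Their mRNAs start with a run of pyrimidines, the terminal oligopyrimidine (TOP) tract, through which mTORC1 signaling and the protein LARP1 control their translation. In the preimplantation mouse embryo, ribosome production resumes once the embryonic genome is active.

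Signals were log2 intensities, averaged over the spots of a probe, from which the 75th percentile of the array was subtracted, so that a level of 0 is that percentile. A difference is a log2 difference of levels between 2 arrays. The scanner software called 56.4% to 58.7% of all probes well above background, and the detection limit lay at a level between -4.32 and -3.93. All 3 arrays were on the same slide. The blastocyst label was checked against markers. All 7 trophectoderm, 5 inner cell mass and 4 primitive endoderm markers were above background on every array. Summed over their genes, in multiples of the array's 75th percentile, trophectoderm markers stood at 503 in young, 381 in aging and 448 in suppressed aging blastocysts. The inner cell mass markers stood at 1013, 1223 and 1130 in that order. Most of these sums came from Nanog, at levels of 9.88, 10.14 and 10.03. Gene by gene, all 5 inner cell mass markers were higher in aging than in young blastocysts, by 0.26 to 1.37. Of the 7 trophectoderm markers, 6 were lower. Of 6 cumulus and granulosa cell markers, Has2, Ptx3, Tnfaip6 and Fshr were not well above background on any array. Foxl2 stood at levels of 8.54 to 8.77, and Amh was above background on every array at -3.79 to -3.33. Oocyte markers summed to 0.572 in young, 1.36 in aging and 0.660 in suppressed aging blastocysts. Of 3 measured for aging minus young, Zp3 was higher by 2.08 and 2 were lower. Bmp15 was above background on the aging and suppressed aging arrays and not on the young array. Blood markers summed to 0.806, 1.49 and 0.483 in the same order of arrays. Hbb-bt and Ptprc were below background, whereas Hba-a1 was above it on every array, at -0.36, 0.55 and -1.14. The part of these shifts in the differences of the ribosomal protein genes was not tested.

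Nearly every ribosomal protein gene gave a strong signal in all 3 conditions. With the brightest probe of each gene, 82 of the 84 genes were above background on all 3 arrays, against 58.9% of all named genes. All of these 82 also lay over the 75th percentile of every array, as did 7149 of the 23458 named genes. The median level of the 84 genes was 7.19 in young, 7.21 in aging and 7.29 in suppressed aging blastocysts. No spot of these probes was saturated. Signals of different probes do not compare the amounts of their RNAs, because probes differ in binding, and processed pseudogenes of many ribosomal protein genes are close enough in sequence that their transcripts may bind the same probes.

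Both exceptions were genes of the large subunit with a single probe. Rpl3l, a paralog of Rpl3 known from striated muscle, was at -6.24 in young, -6.39 in aging and -6.18 in suppressed aging blastocysts, and was not above background on any. Rpl37, a core gene, was at -2.63, -4.12 and -4.93 in that order, and was not above background on the suppressed aging array. A further probe outside the brightest ones was dim. The third probe of Rps15a was at -3.81, -5.25 and -4.16, above background on the young array alone, while the other 2 probes of this gene were at 7.40 to 7.51 and at 5.27 to 5.37.

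**Figure D1:**
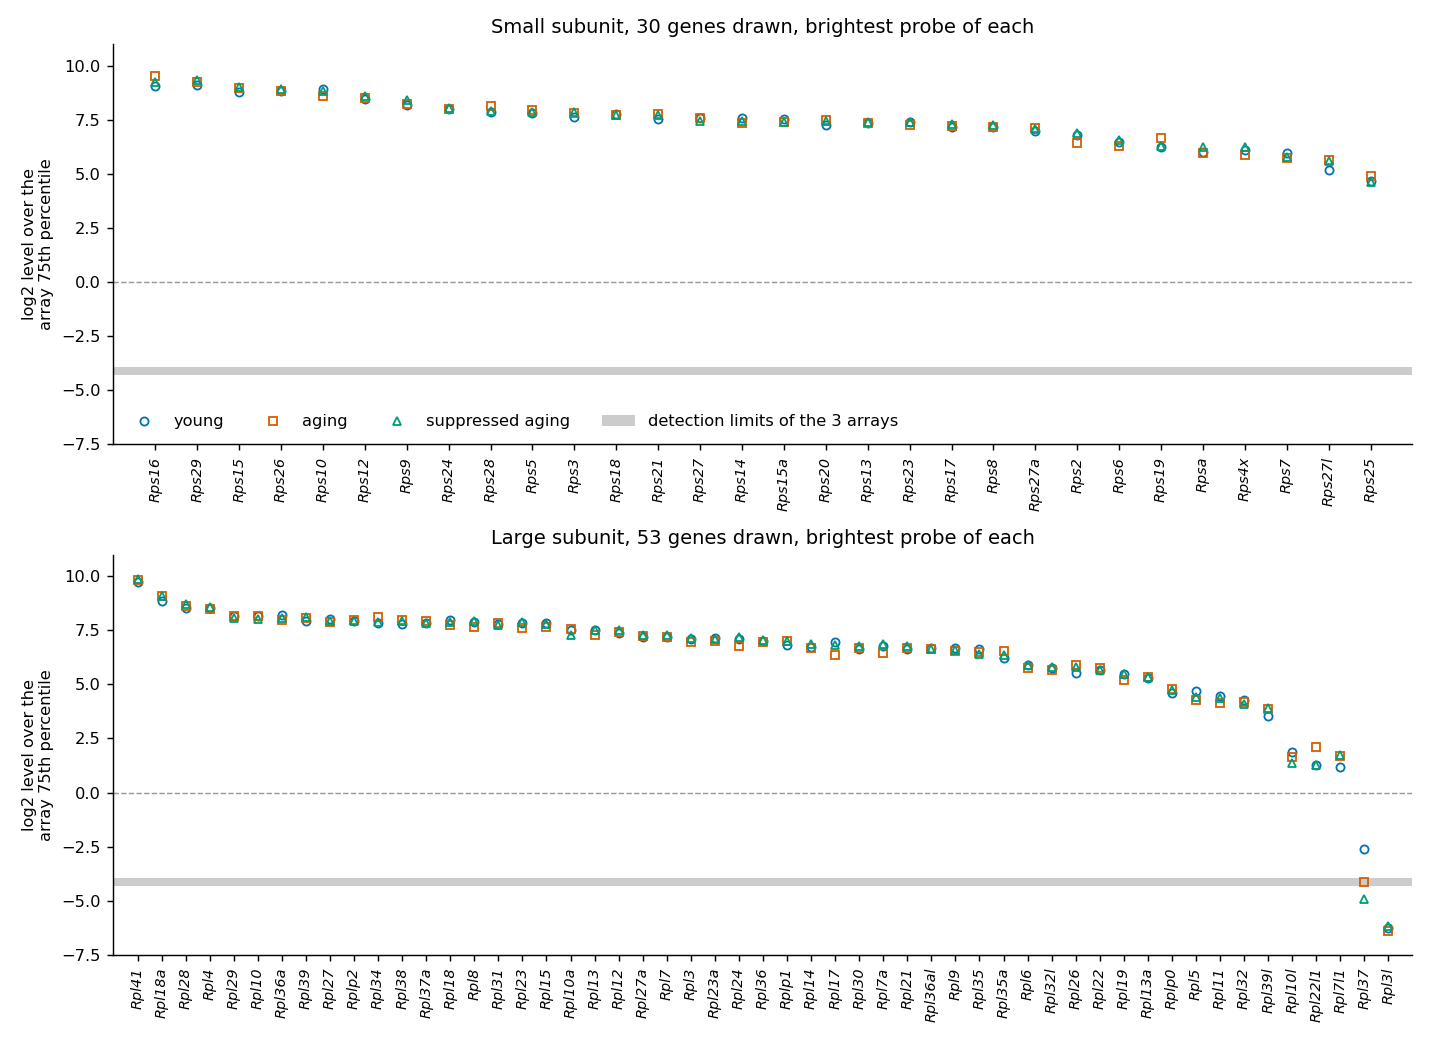
Log2 level of the brightest probe of 83 of the 84 genes (vertical axis, relative to the 75th percentile of the array, dashed line at 0) on the young, aging and suppressed aging arrays, with 1 pool each. Genes are ordered by signal, which does not rank their RNA amounts. The 3 symbols of most genes fall on each other, and Rpl37 and Rpl3l are the genes near or under the grey band of detection limits.

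The annotated starts of these genes are printed because the TOP tract is what the mRNAs of the family are known to share. Promoters of 64 of the 84 genes were found in the RefSeq table for GRCm38.p6. A C within 10 bases of the annotated start, on the strand of the gene and followed by at least 4 C or T, was found in 40 of the 64 genes (62.5%) and in 34.4% of the 27025 genes of the table. Examples follow for genes described below, with 15 bases before the start and 15 from it, the tract in capitals, and coordinates of GRCm38.p6.
Rps6 (chr4:86857353-86857382, minus strand): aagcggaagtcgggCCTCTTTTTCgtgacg
Rps10 (chr17:27635230-27635259, minus strand): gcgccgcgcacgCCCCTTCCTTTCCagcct
Rps9 (chr7:3704026-3704055, plus strand): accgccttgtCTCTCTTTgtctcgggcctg
Rpl35a (chr16:33056467-33056496, plus strand): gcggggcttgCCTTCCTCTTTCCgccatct
Rplp2 (chr7:141447636-141447665, plus strand): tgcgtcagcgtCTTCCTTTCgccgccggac
Rpl22l1 (chr3:28805493-28805522, plus strand): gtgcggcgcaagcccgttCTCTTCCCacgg
Rps16 (chr7:28350674-28350703, plus strand): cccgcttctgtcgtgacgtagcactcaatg
Rpl7l1 (chr17:46782642-46782671, minus strand): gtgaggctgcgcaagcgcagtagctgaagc
The last 2 windows hold no such tract at the start that RefSeq annotates, which can lie some bases from the start used in these embryos. In the whole window of 250 bases before and 50 after the start, GGGCGG was found on either strand in 60.9% of the 64 genes, against 38.2% of all genes. CCGGAAG was found in 39.1% against 9.93%, and AAGATGG in 15.6% against 7.28%, again on either strand and counted separately where matches overlapped. TATAAA between 40 and 15 bases before the start, on the strand of the gene, was found in Rpl22l1 alone (1.56% against 2.41%). Genes with and without the tract had close medians in each comparison: 0.025 (39 genes) and -0.013 (24 genes) for aging minus young, 0.039 and 0.044 (23 genes) for suppressed aging minus aging, and 0.055 and 0.056 for suppressed aging minus young.

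The comparison of aging with young blastocysts asks how maternal age moved these mRNAs. Most members lay close together on both arrays, with single genes up to 1.77-fold higher or 1.51-fold lower apart from the dim Rpl37. Of 83 members measured on both arrays, 43 were higher and 40 lower in aging blastocysts, with a median difference of 0.0028. With centring on housekeeping genes, 54 of the 83 were higher. In such pools, a gene expressed in fewer cells and less RNA per cell cannot be told apart. Only Rpl37 was over 2-fold apart, at 2.81-fold lower in aging blastocysts, where its level was near the detection limit, and its difference was -0.34 instead of -1.49 with normexp background correction. Over all named genes, 15.6% of 14352 were over 2-fold apart. Among the 442 named genes at least as bright as the lower quartile of the members, which lay at a level of 6.30, the share was 1.58%. These 442 bright genes include 63 members. The typical member was 1.11-fold apart in either direction, against 1.32-fold over all named genes and 1.09-fold over those bright genes. The 63 members of that brightness were typically 1.10-fold apart, against 1.09-fold over the 379 bright genes outside the family. In this comparison, the typical distance of the members was thus not below that of genes of like signal.

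Among the genes higher in aging blastocysts, paralogs took the first ranks. Rpl22l1, the paralog of Rpl22, was at 1.26 in the young pool and 2.09 in the aging pool, a difference of 0.82. Rpl7l1, related to Rpl7, went from 1.20 to 1.69 (0.49), and Rps27l, a p53-responsive paralog of Rps27, from 5.16 to 5.65 (0.48). Rps16 and Rps19, both of the small subunit, followed at 0.44 (9.07 and 9.51) and 0.40 (6.24 and 6.64). Rps19 is the gene most often mutated in Diamond-Blackfan anemia, an inherited failure of red cell production. The signs of these 5 differences held under all 6 scalings tried, as those of 70 of the 83 members did. The scalings shifted the median of all named genes by at most 0.092, less than each of the 5 differences.

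At the other end, Rpl37 was followed by Rpl17, which lines the exit of the nascent chain, with levels of 6.97 in young and 6.37 in aging blastocysts (-0.60). Rpl5, which binds 5S rRNA, was lower by 0.42 (4.69 and 4.27). Rps2, at the mRNA entry of the small subunit, differed by -0.37 (6.77 and 6.41), and Rpl7a by -0.34 (6.79 and 6.45). These signs also held under all 6 scalings. The core genes of the small subunit had a median of 0.018 (17 of 30 higher), and those of the large subunit a median of -0.023 (22 of 46 higher).

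**Figure D2:**
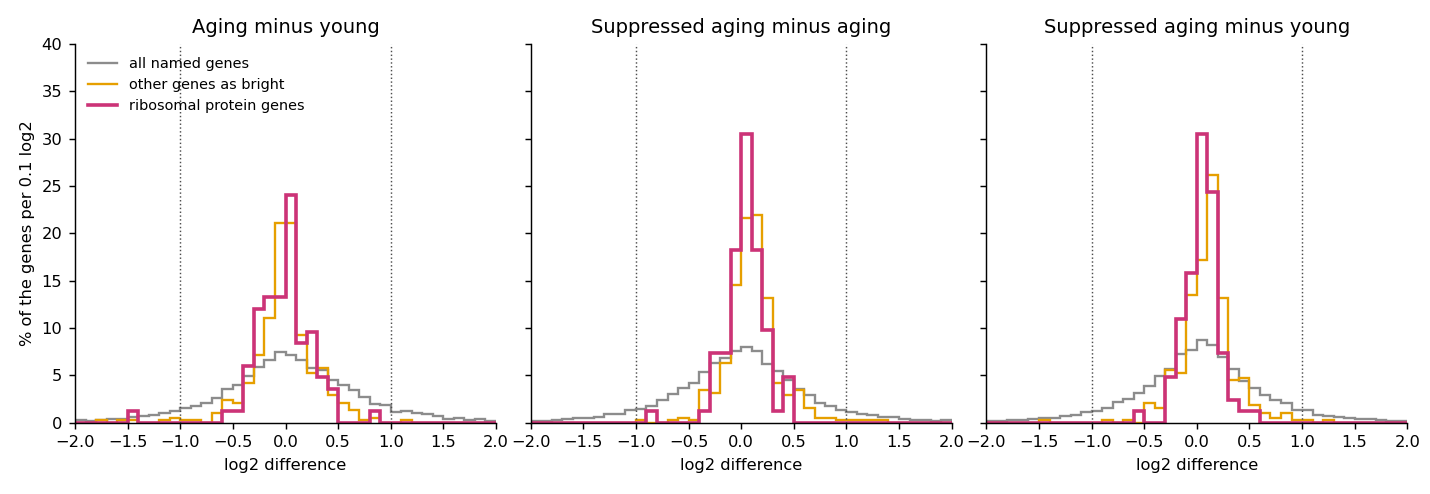
Share of genes (vertical axis, % per bin of 0.1) by log2 difference (horizontal axis, from -2 to 2, values beyond not drawn) for the 3 comparisons, with dotted lines at 2-fold. The ribosomal protein genes and the other genes of like brightness gather near 0, and all named genes spread more widely.

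Suppressed aging against aging blastocysts asks what blocking CXCL5 and CXCR2 moved. Both this comparison and the one above use the same aging array, so a deviation of that array alone gives opposite differences in the 2. Of 82 members measured on both arrays, none was over 2-fold apart, against 14.2% of 14175 named genes and 0.905% of the bright ones. The typical member was 1.07-fold apart, against 1.29-fold over all named genes and 1.10-fold over the bright ones. It was 1.07-fold for the 63 bright members and 1.11-fold for the 379 bright genes outside the family. The median difference was 0.045 and 53 of the 82 were higher, but no direction can be given to the family: with quantile normalization 31 were higher, with centring on housekeeping genes 32, with normexp 29 and in the authors' table of processed values 30. Without these changes of scaling, 7137 of the 14175 named genes were higher. So were 270 of the 379 bright genes outside the family, with a median of 0.099.

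Rps2 had the greatest difference upwards, with levels of 6.41 in aging and 6.90 in suppressed aging blastocysts (0.50). Next were Rpl17 (6.37 and 6.84, 0.47), Rpl24 (6.78 and 7.20, 0.42), Rpl7a (6.45 and 6.86, 0.41) and Rps4x (5.86 and 6.23, 0.38). Rpl24 sits at the interface of the subunits, and Rps4x encodes a small subunit protein and lies on the X chromosome. The lower end was led by Rpl22l1, which went from 2.09 to 1.27 (-0.82) and was thus close to its young level of 1.26. This gene was read by a single probe, printed once on each array. Rps19 followed at -0.34 (6.64 and 6.29), Rps25 at -0.30 (4.90 and 4.60), Rpl10l at -0.28 (1.64 and 1.36) and Rps16 at -0.27 (9.51 and 9.24). All of these 10 differences kept their sign under the 6 scalings, as 50 of the 82 members did.

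Suppressed aging against young blastocysts asks what remained. None of 82 measured members was over 2-fold apart, against 13.5% of 14145 named genes and 0.905% of the bright ones, and Rpl37 was at least 2.47-fold lower in suppressed aging blastocysts, where it was not well above background. This bound sets the young level against the detection limit of the other array. The typical member was 1.08-fold apart, against 1.28-fold over all named genes. It was 1.08-fold for the 63 bright members and 1.11-fold for the 379 bright genes outside the family. The median difference was 0.056 with 55 of 82 higher, but 40 were higher with quantile normalization and 38 with normexp. Of the bright genes outside the family, 269 of 379 were higher, with a median of 0.11. Rpl7l1 led with 0.53 (1.20 in young and 1.72 in suppressed aging blastocysts), then Rps27l with 0.43 (5.16 and 5.59), Rpl39l with 0.36 (3.53 and 3.89), Rpl26 with 0.31 (5.51 and 5.82) and Rpsa with 0.26 (5.98 and 6.25). The second probe of Rps27l was at 0.15, and the other 2 probes of Rpl26 were at -0.01 and 0.01. The protein Rpl26 is known to bind the p53 mRNA, and Rpsa is also known as the laminin receptor. Lowest were Rpl10l at -0.53 (1.89 and 1.36), Rpl5 (4.69 and 4.44) and Rpl35 (6.64 and 6.39) at -0.25 each, Rpl10a at -0.24 (7.53 and 7.28) and Rpl32 at -0.20 (4.28 and 4.08). These 10 kept their sign under all 6 scalings, as 59 of the 82 members did.

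Several functional groups are small enough to give gene by gene. In the acidic stalk, which recruits the elongation factors to the ribosome, all 4 genes were higher in aging than in young blastocysts. Rplp0 was higher by 0.21, Rplp1 by 0.17, Rpl12 by 0.08 and Rplp2 by 0.03. This direction held under all 6 scalings, as it did for 41 of the 43 members higher in aging blastocysts, so it does not set the stalk apart. The second probe of Rpl12 pointed the other way, at -0.08. After suppression the 4 genes differed from aging blastocysts by -0.07 to 0.07. Rpl5 and Rpl11 form with 5S rRNA the particle that inhibits Mdm2 when ribosome assembly is disturbed. Both were lower in aging than in young blastocysts, Rpl11 with levels of 4.47 and 4.14 (-0.33) beside the values of Rpl5 above. Rpl5 and Rpl11 were each read by a single probe. In suppressed aging blastocysts Rpl11 stood at 4.35 and Rpl5 at 4.44, between the other 2 conditions. The difference of Rpl5 from aging blastocysts was 0.17 and turned to -0.11 with 1 of the other scalings.

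Rps6, the substrate of S6 kinase downstream of mTORC1, was read by 2 probes. Its brightest probe had levels of 6.46 in young, 6.28 in aging and 6.55 in suppressed aging blastocysts, and its second probe 5.96, 5.82 and 5.99. On both probes the aging array was the lowest of the 3, by 0.14 to 0.27. Of the genes whose protein is made as a fusion with ubiquitin or a ubiquitin-like protein, Rps27a was at 6.96, 7.10 and 7.05. Fau, which the naming rule does not take, was at 9.17, 9.11 and 9.40. Rack1, a scaffold on the small subunit, was higher by 0.28 in aging than in young blastocysts, and Rps3a1 was lower by 0.36.

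Among the 6 genes of the mRNA channel of the small subunit found here, 3 were higher in aging than in young blastocysts, and all 6 were higher in suppressed aging than in aging blastocysts, from 0.02 to 0.50, of which Rps3 and Rps15 turned sign with another scaling. Most bright genes outside the family, 270 of 379, were also higher in suppressed aging than in aging blastocysts. The 9 genes at the exit of the nascent chain were split, with 4 higher in aging blastocysts and 5 higher after suppression. Of 19 genes known from Diamond-Blackfan anemia, 10 were higher in aging blastocysts, and their median was 0.012. In all of these lists, no gene was over 2-fold apart in any comparison.

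Of 7 measured paralog members, 4 were higher in aging than in young blastocysts, with a median of 0.33. Their typical distance in this comparison was 1.25-fold, against 1.10-fold for core genes of the small and 1.11-fold for those of the large subunit, and 1.32-fold over all named genes. For suppressed aging against aging the order was the other way, with 1.04-fold for the paralogs and 1.07-fold for each group of core genes. For suppressed aging against young it was 1.29-fold for the paralogs and 1.08-fold for each group of core genes. Rpl22l1, Rpl7l1 and Rpl10l were at levels of 1.20 to 2.09, under the lower quartile of the members' mean levels at 6.30. Each of them was read by a single probe, as was Rpl39l. Rpl39l, known from male germ cells, was at 3.53, 3.85 and 3.89 on the young, aging and suppressed aging arrays. Rpl10l, which stands in for the X-linked Rpl10 in male meiosis, was at 1.89, 1.64 and 1.36. Rpl36al was at 6.67, 6.66 and 6.66, and Rpl32l at 5.77, 5.65 and 5.82. Rps4l, which matched the naming rule but has no mRNA accession and was therefore not counted, was at 5.64, 5.88 and 5.70. Rpl22l1 was higher on the aging array than on both others, whereas Rps27l, Rpl7l1 and Rpl39l were higher than young in both aging conditions. On its second probe, Rps27l was at 0.15 for suppressed aging minus young and at -0.32 for suppressed aging minus aging.

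Different probes of a gene read the same pool, so their agreement shows whether a difference is one of the gene on these arrays or of a single probe. For the 47 members with at least 2 measured probes, the 2 brightest pointed the same way in 35 genes (74.5%) for aging minus young. This share was 56.7% over 4861 named genes and 61.7% over 235 bright named genes. For suppressed aging minus aging it was again 35 of 47 (74.5%), beside 54.8% over all named and 66.1% over bright genes. For suppressed aging minus young it was 28 of 47 (59.6%), beside 56.1% and 56.7%. Across the 47 genes, Pearson's r between both probes was 0.64, 0.64 and 0.36 in that order. It was 0.16, 0.11 and 0.13 over all named genes, and 0.22, 0.23 and 0.14 over the bright ones. Spearman's rho was 0.57, 0.69 and 0.34 for the members, and 0.36, 0.28 and 0.21 over the bright genes. These correlations are across genes of the same 2 arrays, which are not independent replicates, and probes of a gene may overlap in sequence. The median gap between both probes was 0.13, 0.089 and 0.11.

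All measured probes of a gene pointed the same way in 34 of 47 members for aging minus young (16 higher and 18 lower), 34 for suppressed aging minus aging (23 higher and 11 lower) and 24 for suppressed aging minus young (15 higher and 9 lower), and in none were they all over 2-fold apart. These counts over all probes were made for the members only. They have no share of all named genes beside them and do not set the members apart. For aging minus young, Rps27l gave 0.48 and 0.47, Rps16 0.44 and 0.26, Rps19 0.40 and 0.23, and Rpl35a 0.29 and 0.33. The 3 probes of Rpl17 gave -0.60, -0.27 and -0.37. In the same comparison Rps2 gave -0.37 and 0.10, so that its lower level rested on a single probe, and Rpl7a gave -0.34 and -0.02. For suppressed aging minus aging, the probes of Rpl17 gave 0.47, 0.27 and 0.34, those of Rpsa 0.27 and 0.30, and those of Rpl10a -0.26 and -0.34. The probes of Rps2 gave 0.50 and 0.02, those of Rpl7a 0.41 and -0.05, and those of Rps4x 0.38 and -0.09. Of the 5 genes with the greatest upward differences after suppression, all probes were at least 0.19 higher for Rpl17 and Rpl24 (0.42 and 0.19) and not for the other 3.

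**Figure D3:**
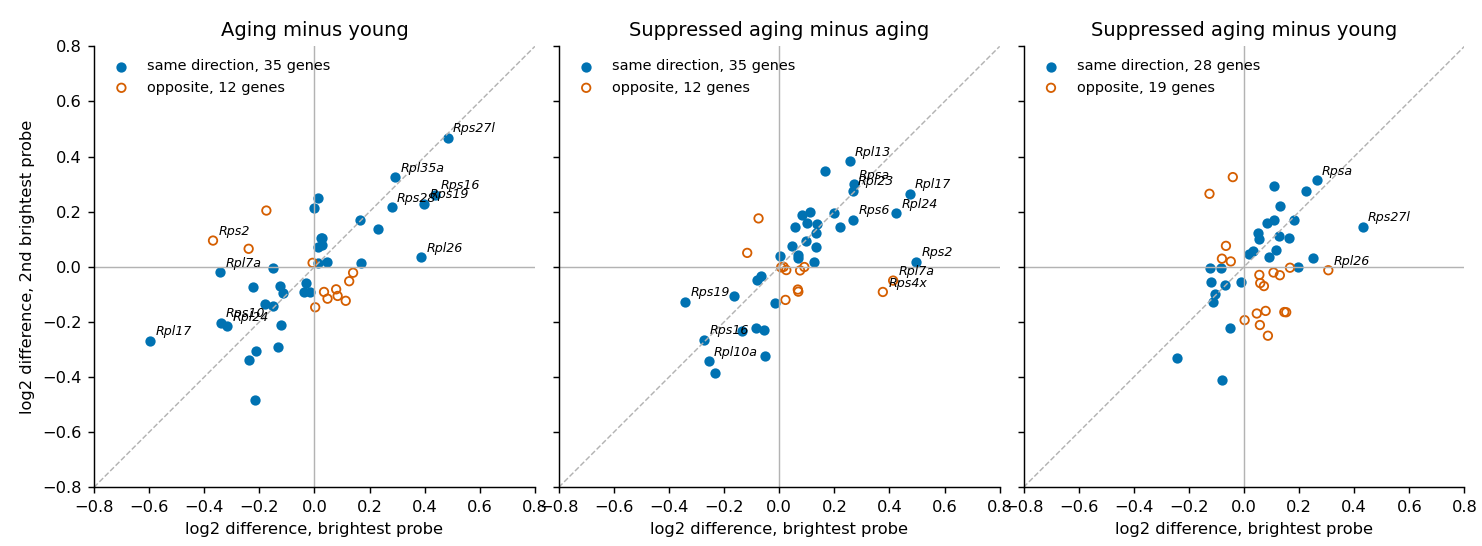
Log2 difference of the second brightest probe (vertical axis) against that of the brightest (horizontal axis) for the 47 members with at least 2 measured probes, in the 3 comparisons. Filled points lie in the quadrants of equal direction (35, 35 and 28 genes), open points in the others, the dashed line marks equal values, and genes over 0.25 from 0 on the brightest probe are named.

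The array printed 300 probes 10 times, and 59 of them, for 47 member genes, belonged to ribosomal protein genes. Their spots give the error of a signal within an array, which holds no difference between embryos. The median SD over spots was 0.050 for the young array and 0.045 for each of the others. All spots were higher in aging than in young blastocysts for 10 of the 59 probes, all were lower for 18, and 31 overlapped. The ranges did not overlap for 50% of all 286 such probes measured on both arrays, so this share is near that of the members. After suppression, 16 probes were wholly above and 10 wholly below their aging range, beside 50% of all such probes that did not overlap. For suppressed aging against young, 10 were wholly above and 5 wholly below, beside 34.7% of 288. The directions of these counts depended on the scaling. Centring on the mean of the housekeeping genes gave 19 above and 9 below for aging against young, and 7 above and 14 below for suppressed aging against aging. Centring on the median of the members gave 3 above and 16 below for suppressed aging against young.

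For several genes the arrays differed by more than the spread of the spots. The brightest Rpl17 probe had spots from 6.86 to 7.02 in young, 6.31 to 6.42 in aging and 6.77 to 6.91 in suppressed aging blastocysts. All 3 Rpl17 probes were wholly lower in aging than in young blastocysts and wholly higher again after suppression. Both Rps6 probes showed the same order, and so did the probes of Rps2, Rps10, Rpl3, Rpl8 and Rpl13 that were printed 10 times. Some of these gaps were small. For the brightest Rps6 probe the lowest young spot was at 6.37 and the highest aging spot at 6.36. These spots were at 7.82 and 7.75 for Rpl8, and at 7.46 and 7.38 for Rpl13. Centring on housekeeping genes raises aging minus young by 0.092, and the young and aging ranges of these probes then overlap. The opposite order, with the aging array wholly above the other 2, was seen for Rps19, Rps28, Rps16, Rpl34, Rpl29 and 1 of the 2 such probes of Rpl39. The brightest Rps19 probe had spots from 6.04 to 6.42, 6.58 to 6.72 and 6.24 to 6.37 in the order of the arrays. For Rps9, the suppressed aging array was wholly above both others, with its lowest spot at 8.33 and the highest aging spot at 8.29. Centring on housekeeping genes lowers suppressed aging minus aging by 0.079, and these 2 ranges then overlap. Spots that do not overlap can still disagree between probes of a gene. The suppressed aging array was wholly above both others on 1 Rps18 probe and wholly below them on another. The Rpl15 probe printed 10 times was wholly higher in aging than in young blastocysts, while the brightest Rpl15 probe was at -0.17.

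**Figure D4:**
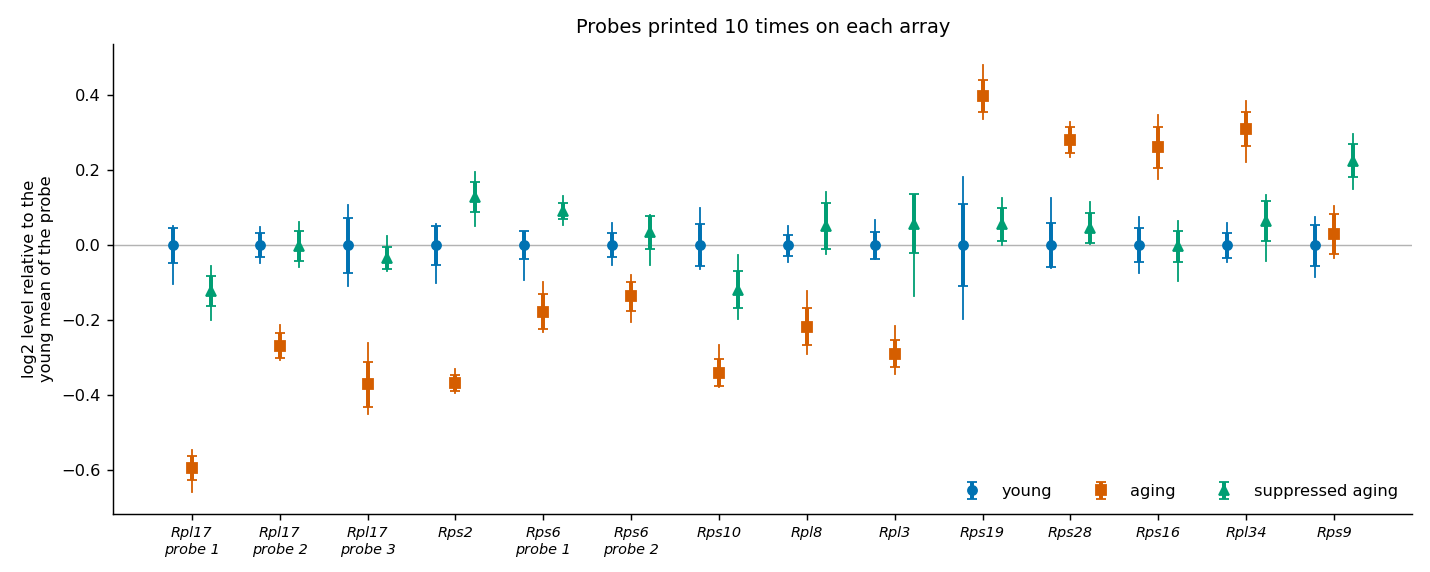
Log2 level relative to the young mean of the probe (vertical axis) for 14 probes printed 10 times, of 11 genes chosen after their values were seen. Symbols are means over the spots of an array, thick bars the SD over spots and thin lines their range. The aging array is lowest for Rpl17, Rps2, Rps6, Rps10, Rpl8 and Rpl3 and highest for Rps19, Rps28, Rps16 and Rpl34.

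Other genes of translation and ribosome production were compared from lists. The 5 elongation factor genes, whose mRNAs also carry TOP tracts, were all within 2-fold, with Eef1g at 7.77, 7.44 and 7.88 and Eef2 at 7.57, 7.29 and 7.64 on the young, aging and suppressed aging arrays. Of 10 other genes with TOP mRNAs, only Vim, which encodes vimentin, was over 2-fold apart, lower by 1.74 in aging and by 1.41 in suppressed aging than in young blastocysts. Of 32 ribosome biogenesis genes, Nmd3, an export adaptor of the large subunit, Dkc1, the pseudouridine synthase of rRNA, and Mdn1 were over 2-fold lower in aging than in young blastocysts (-1.26, -1.10 and -1.03). Utp15 and Utp14a, of the small subunit processome, were over 2-fold higher after suppression (1.40 and 1.23), and Utp15 and Wdr43 were over 2-fold higher in suppressed aging than in young blastocysts (1.45 and 1.04). These were 3, 2 and 2 of the 32 genes in the 3 comparisons, smaller shares than the 15.6%, 14.2% and 13.5% of all named genes. The median of the 32 was -0.039, 0.18 and 0.12, beside 0.024, 0.0047 and 0.043 over all named genes. Of 10 measured genes of RNA polymerase I and its factors, Polr1a, the largest subunit, was higher by 1.13 in aging than in young blastocysts, and no other was over 2-fold apart. The shares over 2-fold apart among the genes with TOP mRNAs and the RNA polymerase I genes were likewise below those of all named genes in each comparison.

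**Figure D5:**
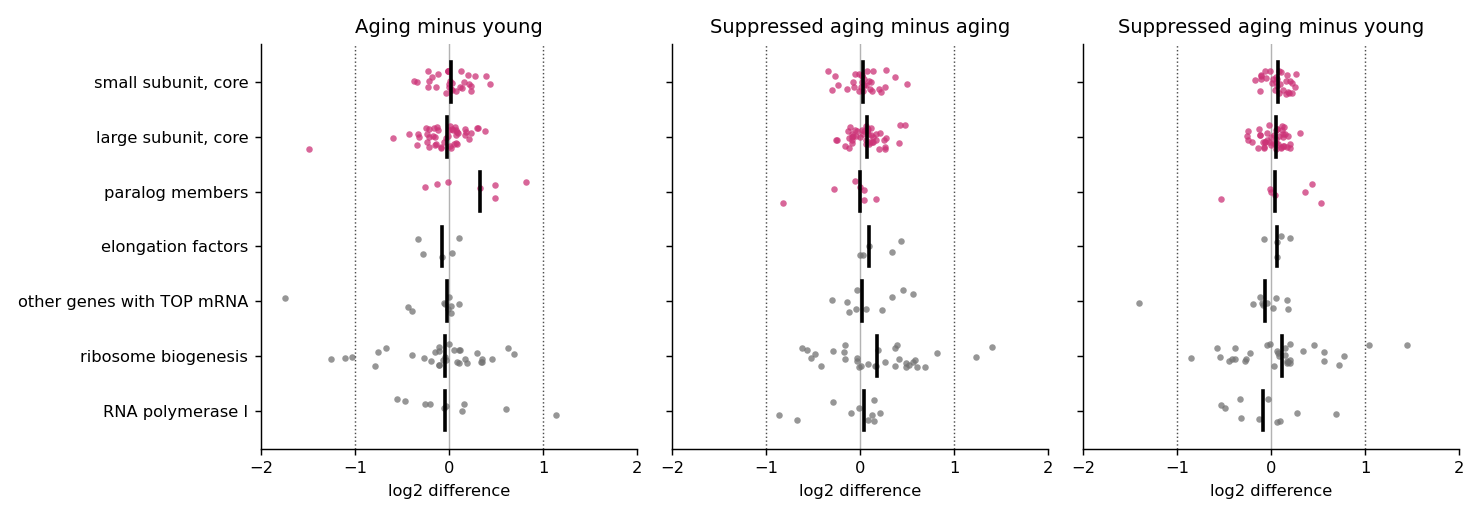
Log2 difference (horizontal axis, dotted lines at 2-fold) of each measured gene, as points, in the ribosomal protein groups and in lists of related genes, for the 3 comparisons. Black bars are medians. Core genes lie in a narrow band around 0 apart from Rpl37 in aging minus young. Of the 32 biogenesis genes, 3, 2 and 2 lie past 2-fold, a smaller share than among all named genes.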

How the data were processed

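RNA of 3 blastocyst pools was hybridised to Agilent SurePrint G3 Mouse GE arrays with the dye Cy3. The study's methods describe amplification by global PCR, while the labels name a cRNA labeling kit, and which was used is not settled here. As deposited, the values are spot intensities from Agilent Feature Extraction 12.0.3.1, background-subtracted and detrended within an array, without normalization between arrays. The series table of the authors held the same intensity times a constant factor per array (3.46, 3.34 and 3.96). Depth is not defined for arrays, and their number limits the precision. The intensities were converted here to log2, without control spots and spots marked as outliers, averaged per probe, and the 75th percentile was subtracted. Genes were named through RefSeq accessions, and each was represented by its probe of highest mean level. A gene was measured where the scanner software called the probe well above background on both arrays compared, and called past 2-fold. No P-value was computed, since each condition had 1 array. Named are, per comparison, the 5 members with the greatest difference each way, members with a dim probe, and all genes of the lists of the stalk, 5S particle, S6 kinase target, ubiquitin fusions and paralogs, with examples from other lists, chosen by their differences. Genes named in addition for their probes or spots were chosen after their values were seen. The members and lists were chosen with earlier results of these data known. The alternatives were other scalings, normexp (limma 3.58.1), other probe choices and thresholds of 1.5-fold and 5-fold. The spot counts were recomputed under 3 centrings added after seeing the data. Procedures were tested on simulated data. Python 3.11.15, NumPy 2.4.6, pandas 2.3.3, Matplotlib 3.10.9 and R 4.3.3 were used. Protein sequences were not analysed here, and single values of 1 member and of 1 listed gene are not reported here.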

Additional observations from a re-analysis of the deposited data

How the results depend on the processing

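The shares of genes with agreeing probes stayed within 1.5 times under quantile normalization, normexp, and centring on detected probes or housekeeping genes. The number of members above background on all arrays did so under other probe choices and with outlier spots kept. The median difference kept its direction in none of the 3 comparisons under all alternatives. For aging minus young it was -0.0049 when centred on detected probes and -0.0091 with probes of a gene averaged, and it moved to 0.095, in the same direction, when centred on housekeeping genes. For suppressed aging minus aging it was -0.045 with quantile normalization, -0.034 when centred on housekeeping genes, -0.066 with normexp and -0.045 in the authors' table. For suppressed aging minus young it was -0.029 with normexp and -0.0052 with quantile normalization. The cause was not tested. Members over 2-fold apart for aging minus young numbered 0 with normexp. At 1.5-fold, 3 members were apart for aging minus young (Rpl22l1 higher, Rpl17 and Rpl37 lower) and 1 for suppressed aging minus aging (Rpl22l1), and at 5-fold 0 were apart for aging minus young. For aging minus young, 96.4% of the members were under 1.5-fold apart, against 65.2% of all named genes and 94.6% of the bright ones. For suppressed aging minus aging, these shares were 98.8%, 68.1% and 95.2%. Without the filter on low signal, 1 member, Rpl37, was over 2-fold apart for suppressed aging minus young. Counts of probes whose spots did not overlap stayed within 1.5 times, but their directions did not. No paired analysis was possible because every condition was read on a single array, so that none could be left out either. Signal over background limits statements on Rpl37, Rpl3l and the third Rps15a probe.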
